A study of Drosophila melanogaster with 2 samples.

Results

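The genes described here are the chemosensory receptor genes of Drosophila melanogaster: 59 odorant receptor (Or), 58 gustatory receptor (Gr) and 60 ionotropic receptor (Ir) genes, 177 of the 13968 annotated protein-coding genes. Members were protein-coding genes whose symbol is Or, Gr or Ir followed by digits and a letter. A further 2 genes that match this pattern were left out by the rule and were not analysed here. Binding of E2f2 was read from chromatin immunoprecipitation followed by sequencing (ChIP-seq). All samples were whole embryos aged 0 to 24 h of the E2F2-GFP strain, transgenic flies that express an E2f2-eGFP fusion, and an anti-GFP antibody was used for the precipitation. They form a single group of 2 biological replicates, which leaves no conditions to compare, and a control sample was not analysed here. A gene was called bound when at least 1 of its annotated transcription start sites (TSSs) had a peak summit at 500 bp or less. The main list was the conservative list made from both replicates, with 7312 entries that passed a threshold on the irreproducible discovery rate (IDR). The IDR estimates how likely a peak is to be irreproducible, from how high and how consistently it stands in a pair of rankings.

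Odorant receptors are membrane channels that work with the co-receptor Orco in olfactory neurons of the antenna and the maxillary palp. Gustatory receptors are related proteins that detect sugars and bitter compounds in taste neurons. Ionotropic receptors derive from ionotropic glutamate receptors and serve in the detection of acids, amines, salts, humidity and temperature, several of them together with a broadly expressed co-receptor. A given receptor gene is typically active in a small set of differentiated sensory neurons. E2f2 is the fly E2F protein that acts mainly as a repressor, with Dp, the retinoblastoma family proteins and the dREAM complex. Whole embryos mix all cell types, so an absent peak and occupancy in very few cells cannot be told apart in these lists.

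The stretches of reference sequence shown first hold the passing summits nearest to 5 receptor starts, since the distances given throughout are measured from these summits. They come from the RefSeq copy of Release 6 (the dm6 build), read 5′ to 3′ on the strand of the receptor gene, and the capitals mark the 11 bases centred on the summit. None of the stretches overlaps an annotated exon. For Gr61a the whole interval between the receptor start and the oppositely oriented start of JMJD5 is shown, chr3L:841361-841450. For Gr5a the window is chrX:5680023-5680223, between the starts of Gr5a and Tre1. For Ir31a it is chr2L:10405204-10405365, which begins beside the start shared by CG17768 and LSm-4. For Or88a it is chr3R:14108889-14109089. For Gr97a, which passed in the larger list of the series and in replicate 2 but not in the main list, it is chr3R:26966782-26966929 on the minus strand, which ends beside the start of CG5521 when read along the chromosome.
Gr61a: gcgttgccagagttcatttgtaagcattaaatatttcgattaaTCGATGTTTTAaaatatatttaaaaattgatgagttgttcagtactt
Gr5a: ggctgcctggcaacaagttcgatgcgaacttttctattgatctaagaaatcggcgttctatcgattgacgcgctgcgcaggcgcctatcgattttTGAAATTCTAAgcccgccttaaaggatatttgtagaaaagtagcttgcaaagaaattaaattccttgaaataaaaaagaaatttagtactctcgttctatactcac
Ir31a: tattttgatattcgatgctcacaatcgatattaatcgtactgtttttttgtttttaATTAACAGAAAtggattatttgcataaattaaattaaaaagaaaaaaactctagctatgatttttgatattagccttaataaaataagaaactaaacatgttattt
Or88a: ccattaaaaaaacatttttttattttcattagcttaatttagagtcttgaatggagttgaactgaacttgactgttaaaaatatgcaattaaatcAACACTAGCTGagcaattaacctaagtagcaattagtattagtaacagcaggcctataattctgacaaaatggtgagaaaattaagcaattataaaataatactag
Gr97a: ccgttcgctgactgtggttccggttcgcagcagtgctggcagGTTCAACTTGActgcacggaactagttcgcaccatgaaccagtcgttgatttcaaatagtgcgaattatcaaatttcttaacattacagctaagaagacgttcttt

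None of these summit windows, taken 100 bp to each side, held an E2F motif (TTTGGCGC or TTTCGCGC), the DNA replication-related element DRE (TATCGATA) or the core of the promoter element Motif 1 (GGTCACACT) on either strand. Such matches were found around 5.31%, 10.2% and 6.32% of all 7312 main-list summits. The shorter palindrome ATCGAT, which lies inside the DRE and was searched after the stretches had been read, occurred 2 times in the Gr5a window, once each in those of Gr61a and Ir31a, and not in those of Or88a and Gr97a. It was present around 22.6% of all main-list summits. A match of letters is a description and does not mark a site.

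Few receptor genes had a passing E2f2 summit at their start. In the main list 6 of 177 members were bound (3.39%, exact 95% interval 1.25 to 7.23), while 40.7% of all protein-coding genes were. By family these were 1 of 59 odorant receptors (1.69%, 0.0429 to 9.09), Or88a, 2 of 58 gustatory receptors (3.45%, 0.42 to 11.9), Gr5a and Gr61a, and 3 of 60 ionotropic receptors (5.0%, 1.04 to 13.9), Ir31a, Ir60b and Ir60e. The intervals of the 3 families overlap, so no order among them was resolved at these numbers, and the upper bound of each lies below the share over all genes. Intervals cover counting error over genes only, and tandem members are not independent of each other. The bound members were spread over all 5 large chromosome arms, which carry 30 (2L), 46 (2R), 34 (3L), 42 (3R) and 25 (X) members.

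**Figure D1:**
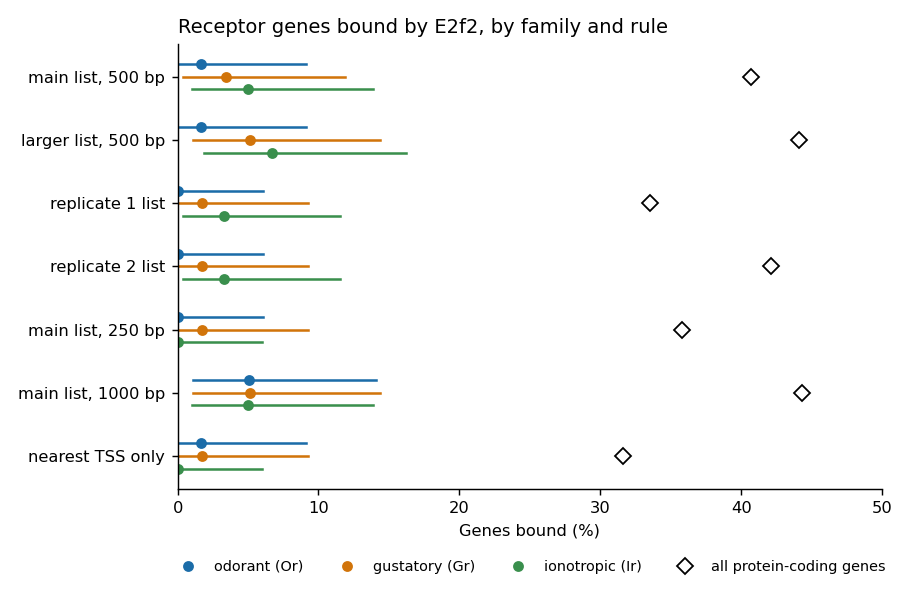
Share of genes bound (x axis, percent) by family under 7 of the rules, with points for each receptor family, lines for exact 95% intervals and diamonds for all protein-coding genes. Under the main rule the families stood at 1.69%, 3.45% and 5.0% and all protein-coding genes at 40.7%; the 1000 bp window had the highest odorant receptor count, 3 genes.

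The annotation of the receptors differs from that of most genes in a way that touches this share. No 5′ UTR is annotated for 129 of the 177 members, so that their annotated TSS is the first base of the coding sequence, and a 5′ UTR is annotated for 48 (27.1%) of the members and for 96.4% of all genes. Among genes without an annotated 5′ UTR the background itself was low: 21 of 502 were bound (4.18%), with 2 of the 129 members among them (1.55%, 0.188 to 5.49), Ir60e and Or88a. Among genes with an annotated 5′ UTR, 4 of the 48 members were bound (8.33%, 2.32 to 20), Gr5a, Gr61a, Ir31a and Ir60b, where 42.0% of all such genes were. The lower share of bound members was therefore seen among genes with an annotated 5′ UTR. Among those without one the interval of the members includes the background. This background of 502 genes, here and below, holds the 129 members themselves, so the sets compared are not separate. Where the transcription starts of the unannotated 5′ ends lie was not tested. This split was chosen after the gene models had been seen.

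Distance, which needs no window, also set the members apart from other genes. The median distance from a TSS to the nearest main-list summit was 10716 bp for members and 2107 bp for all protein-coding genes. It was 16884 bp for odorant receptors, 9743 bp for ionotropic receptors and 6992 bp for gustatory receptors, with quartiles of 7340 and 39733, 5116 and 26390, and 3604 and 25717 bp. Within 5 kb of a summit lay 43 members (24.3%) and 62.5% of all genes, and beyond 20 kb lay 61 members (34.5%) and 15.7% of all genes. Members with an annotated 5′ UTR had a median of 8267 bp against 1864 bp for all genes with one, and members without one 11953 bp against 9288 bp. No member had a main-list summit within its gene body, where 18.1% of all genes had one. Among genes without an annotated 5′ UTR 0.398% had one. A longer body has more room for a summit, and gene length was not matched.

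**Figure D2:**
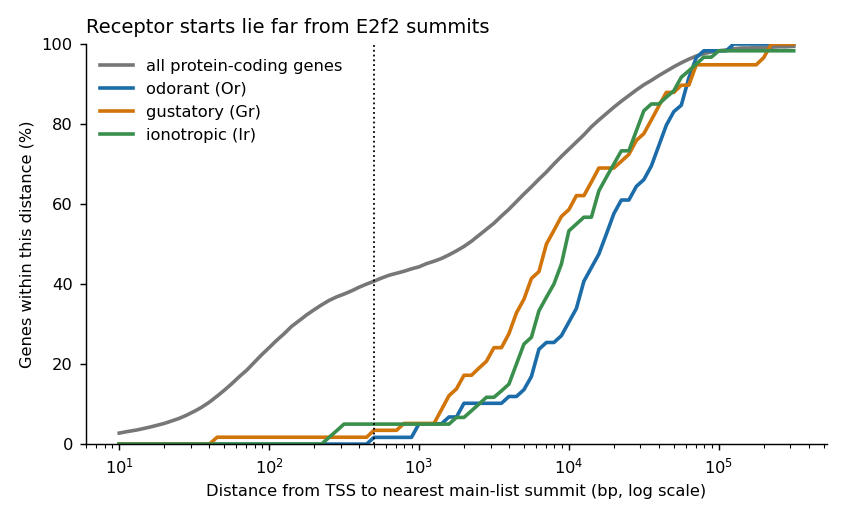
Cumulative share of genes (y axis, percent) with a main-list summit within a given distance of a TSS (x axis, bp, log scale), as lines for the 3 families and for all protein-coding genes, with the 500 bp window dotted. Within 5 kb the lines reach 13.6% for odorant, 36.2% for gustatory and 23.3% for ionotropic receptors and 62.5% for all genes.

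Few members lay near the edge of the window. Just inside it were Or88a at 456 bp and Gr5a at 494 bp from the nearest main-list summit. Just outside it were Gr32a, a receptor for bitter compounds and pheromones, at 791 bp, Or67b at 957 bp and Or9a at 981 bp. A window of 1000 bp therefore gave 9 bound members (background 44.3%), and a window of 250 bp gave 1, Gr61a (background 35.8%). Peak midpoints in place of summits gave 5, without Gr5a (background 40.5%), gene 5′ ends in place of all starts gave 6 (background 38.8%), and the 1000 strongest entries gave 1, Ir60e (background 7.82%).

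The highest signal at a receptor start belonged to Ir60e (FBgn0035019, chr2R:24529554-24531272, minus strand). The signal value is the authors' own peak caller value and is used here only to describe entries within a list. The Ir60e entry had a signal of 1662 in the main list, above 97.6% of its entries, 638 in the list of replicate 1 and 1027 in that of replicate 2, and it was the one member with a summit within the window in both separate lists. Its summit lay 275 bp upstream of the Ir60e start and 47 bp from the start of CG13585, which points the other way 322 bp from that of Ir60e. The strongest receptor entry was thus nearer to the neighbour than to the receptor.

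Gr5a (FBgn0003747, chrX:5680617-5682488, plus strand) encodes a receptor for the sugar trehalose. Its entry had a signal of 396 in the main list and 111 in replicate 1, with the summit 494 bp upstream of Gr5a and 146 bp from the start of Tre1, a G protein-coupled receptor gene known for germ cell migration. In replicate 2 the peak passed too, with a signal of 292, but its summit lay 515 bp from Gr5a, outside the window. The Gr5a call therefore turned on a shift of the summit near the edge, and the peak itself passed in the lists of both replicates.

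Ir60b (FBgn0259185, chr2R:24515685-24517458, plus strand), an ionotropic receptor of pharyngeal taste neurons, had a signal of 86.2 in the main list, with the summit 251 bp from Ir60b and 114 bp from Letm1, which encodes a protein of the inner mitochondrial membrane. In the ranked lists of the separate replicates, which hold entries regardless of the threshold, its entries had signals of 29.4 and 60.2 and −log10 IDR values of 1.59 and 1.87. Both are under the value of 2 that passing entries reach, so Ir60b passed only in the lists made from both replicates.

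Gr61a (FBgn0035167, chr3L:841451-843701, plus strand), another sugar receptor, showed the same pattern over lists. Its signal was 85.4 in the main list, 31.1 in replicate 1 and 60.1 in replicate 2, and the −log10 IDR of the separate entries was 1.39 and 1.84, again short of the threshold. The summit of the main list lay 42 bp from Gr61a and 49 bp from the start of JMJD5, and the starts of both genes are 91 bp apart. In replicate 2 the order was the reverse, with 49 bp to Gr61a and 42 bp to JMJD5. The summit in the Gr61a stretch shown above cannot be given to either gene by distance.

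Ir31a (FBgn0051718, chr2L:10405565-10408197, plus strand), an antennal receptor, had 2 overlapping entries in the main list. The stronger had a signal of 74.1 with its summit 499 bp from Ir31a and 137 bp from the start shared by CG17768 and LSm-4, the latter a member of the LSm family of RNA-binding proteins. The weaker had a signal of 41.7, 300 bp from Ir31a and 62 bp from the shared start. In replicate 1 the entry passed with a signal of 32.3 and a −log10 IDR of 2.01, 440 bp from Ir31a. In replicate 2 the entry had a higher signal, 49.9, but a −log10 IDR of 0.156, and did not pass. Each of these summits lay nearer to the neighbouring start.

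Or88a (FBgn0038203, chr3R:14109445-14110823, plus strand), an odorant receptor of pheromone-sensing antennal neurons, was called on a weak entry. That entry had a signal of 7.35, above 1.38% of the main list, whose median was 174. It overlaps an entry of signal 230 whose summit lay 656 bp from Or88a, and their −log10 IDR values were nearly equal, 3.293513 for the weak entry and 3.293082 for the strong one. In the main list 101 entries had a lower signal than the weak one, and 100 of those were also weaker entries of an overlapping run. The separate replicates had passing entries of signal 50.3 and 176 at 693 and 625 bp and none within the window. A further ranked entry of signal 10, at 189 bp, did not pass. With each overlapping run represented by its strongest entry, 6315 entries remained, Or88a was no longer bound and no odorant receptor was, against 40.3% of all genes.

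**Figure D3:**
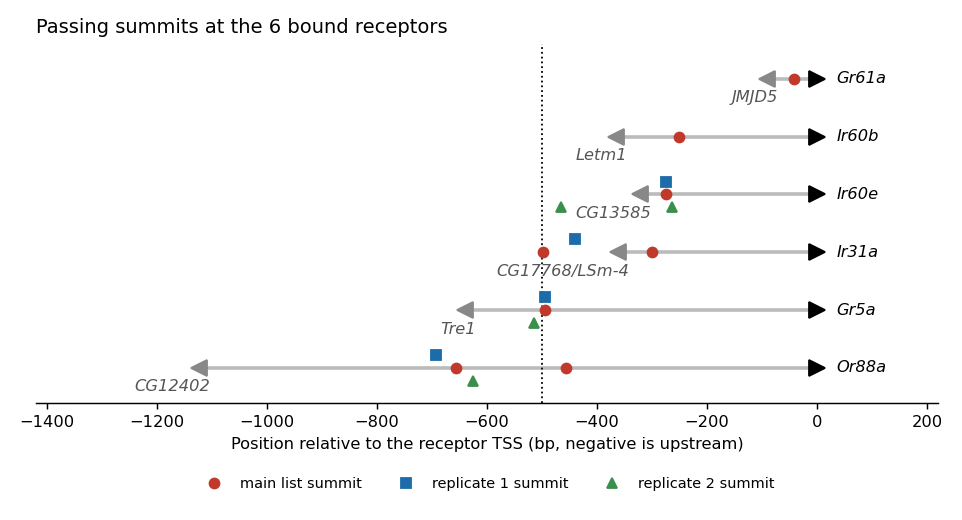
Positions of passing summits (circles, main list; squares, replicate 1; triangles, replicate 2) upstream of the 6 bound receptors, in bp from the receptor start (x axis), with arrowheads for the receptor start and the nearest oppositely oriented start and a dotted line at the window edge. The main-list summits nearest to Ir60b, Ir60e, Ir31a and Gr5a sit closer to the neighbouring start, at 114, 47, 62 and 146 bp.

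Counted over the separate lists, replicate 1 had 3 bound members, Gr5a, Ir31a and Ir60e (background 33.5%), and replicate 2 had 3, Gr97a, Ir60e and Ir76a (background 42.1%). Ir60e alone was bound in both, where 32.2% of all genes were. Of the 6 members with a main-list call, 3 had none in either separate list, Gr61a, Ir60b and Or88a, while this held for 4.19% of the 5681 genes bound in that list. In at least 1 of the 4 thresholded lists 8 members were bound, against 46.4% of all genes. Members bound in the main list were thus more often without a call in either separate list, as a description of 6 genes. For Or88a this rests on the window, since both replicates had passing entries nearby, at 693 and 625 bp.

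The larger list of the series added Gr97a and Ir76a, for 8 members in all (4.52%; background 44.1%). For Gr97a the entry had a signal of 80.9, 21.2 in replicate 1 and 64.6 in replicate 2, the last of which passed. Its summit lay 397 bp from Gr97a and 48 bp from CG5521, and its −log10 IDR of 1.72 in the ranked list behind the main list fell short. Ir76a, an antennal receptor involved in sensing amines, had a signal of 63.4, with the summit 79 bp downstream of an internal start of the gene and 206 bp from CG14102. Its entry passed in replicate 2 with 49.8, and replicate 1 had no entry there. The next signals among unbound members were 41.6 at Or7a, 37.0 at Or46a and 34.3 at Gr94a, none of which passed in any list.

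**Figure D4:**
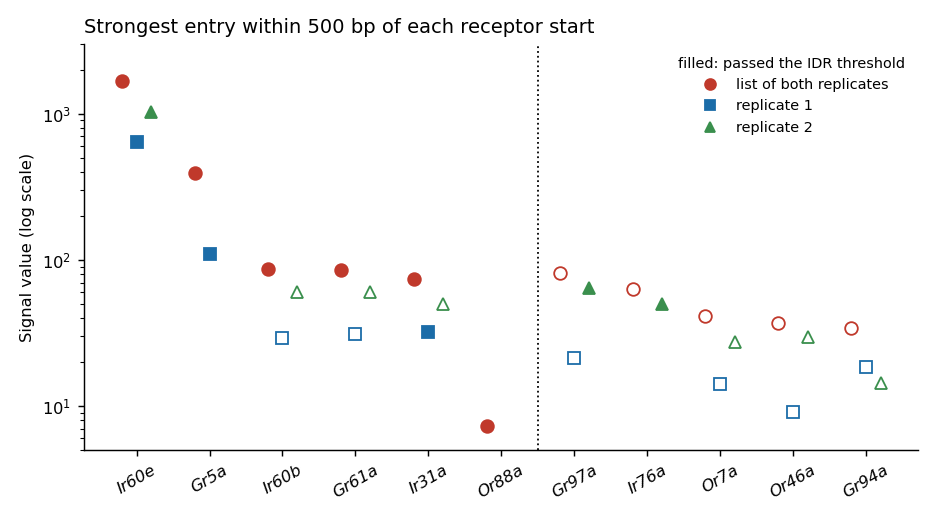
Signal value (y axis, log scale) of the strongest entry within 500 bp of the start for the 6 bound members (left of the dotted line) and the 5 unbound members of highest signal, in the ranked list of both replicates and in each replicate; filled symbols passed the IDR threshold, and for Or88a the weak passing entry of 7.35 is drawn. Ir60e is highest in all 3 lists, at 1662, 638 and 1027.

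An entry of any rank, passing or not, lay within 500 bp of the start of 52 members (29.4%, 22.8 to 36.7), against 70.6% of all protein-coding genes. By family these were 15 odorant (25.4%), 24 gustatory (41.4%) and 13 ionotropic receptors (21.7%). In the separate ranked lists 37 members had an entry in replicate 1 (20.9%; background 66.2%) and 29 in replicate 2 (16.4%; background 70.5%). A ranked entry without a bound call was found for 46 members (26.0%; background 30%). By family this share was 23.7% for odorant, 37.9% for gustatory and 16.7% for ionotropic receptors, given without intervals. The gustatory share lay on either side of the background, depending on the setting. It was 37.9% in the ranked list behind the larger list and 51.7% within 1000 bp, above the background of each. In replicate 1 it was 31.0%, in replicate 2 24.1% and within 250 bp 20.7%, below the background of each. The ranked list behind the larger list had an entry at 55 members (31.1%; background 73.2%), of which 47 were not bound in that list (26.6%; background 29.1%). Without a bound call in the same list, 34 members had an entry in replicate 1 (19.2%; background 32.7%) and 26 in replicate 2 (14.7%; background 28.3%). Within 250 bp, 28 members had an entry (15.8%; background 61.4%), and 27 had one without a bound call (15.3%; background 25.5%). Within 1000 bp these were 68 members (38.4%; background 76.8%) and 59 (33.3%; background 32.5%). Taken over all members, the share with an entry but no call was below the background in each separate replicate and at 250 bp. It was close to the background at 1000 bp. Bound genes cannot enter this count, and in the main list 40.7% of all genes but 3.39% of members were bound. These shares therefore do not compare unbound members with unbound genes. Of the 8287 genes unbound in the main list, 4184 had such an entry within 500 bp. Of the members unbound in that list, which are all but 6 of the 177, 46 had one, a smaller part.

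Most ranked entries at member starts did not pass. Of 80 such entries 7 passed (8.75%), close to the 9.05% of all 80770 and below the 32.6% of the 15769 entries at any protein-coding start. Among those that passed, the entries of Ir60e (1662) and Gr5a (396) were strong, above 99.8% and 97.7% of the ranked list. Entries at genes without an annotated 5′ UTR were not counted apart. The 73 that did not pass had a median signal of 11.2 (quartiles 8.01 and 18.4, highest 80.9), while those at any protein-coding start had a median of 22.8 (12 and 39.7). Over the whole ranked list the median of such entries was 16.9. Of the 73, 36 had their summit in a coding exon (49.3%) against 20.1% at all genes, and 5 in a 5′ UTR (6.85%) against 27.2%. These shares move with the missing 5′ UTR annotation given above, and its part in them was not tested.

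Of the 6 bound receptors, 5 shared their upstream interval with a nearby, oppositely oriented gene. The same arrangement held for 3363 of the 5681 bound genes of all kinds, so it is common among bound genes. Among members, 25 (14.1%) had the start of an oppositely oriented protein-coding gene within 1000 bp upstream, counting any annotated start of either gene, against 36.2% of all genes. Of these 25, 5 were bound (20%, 6.83 to 40.7; background 66.6%). Of the other 152, 1 was bound, Or88a (0.658%, 0.0167 to 3.61; background 26.0%), whose neighbour CG12402 starts 1124 bp away. For 19 of the 25 the neighbour was outside the families, and 9 of those neighbours were bound. The receptor was bound as well in 5 of these 9 pairs. In the others the neighbour alone was bound: Gr32a beside Idua (starts 953 bp apart), Gr59a beside CG43659 (846 bp), Gr94a beside p53 (459 bp) and Or67b beside Cyp40 (779 bp). No divergent pair had a bound receptor and an unbound neighbour. Starts were 91 to 640 bp apart in the 5 pairs with both genes bound, and 1 summit between close starts counts for both. The same pair counts over all divergent genes were not made, so these are not read as a trait of receptors. When each summit was counted only for the gene with the nearest start, 2 members were left, Gr61a and Or88a, against 31.6% of all genes.

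Many receptors lie in tandem. With members at most 10 kb apart joined, 82 members formed 28 runs, and 26 of the runs held no main-list summit between their ends. The exceptions were the run of Ir60b, Ir60d and Ir60e and that of Gr8a and Ir8a. The summit inside the former is neither of those that gave the Ir60b and Ir60e calls, which lie outside the run. No such count was made for runs of other genes. The 6 sugar receptor genes Gr64a to Gr64f lie within 10.8 kb, with the nearest main-list summit 4624 bp from a start. Each had a ranked entry that did not pass, where 30% of all genes had an entry without a call. The 6 genes are not separate observations. Gr64b and Gr64c have the same annotated start and end, and Gr64d and Gr64e show the same entry, at 303 bp with a signal of 5.56. Ir7b to Ir7g span 22 kb, with the nearest summit 4145 bp away and a ranked entry at 1 of the 6 genes. Gr22a to Gr22e were 31705 bp from a summit and Gr36a to Gr36c 198715 bp. Of the 82 members in runs 2 were bound, and of the 95 outside them 4 were, with a background of 40.7% over all genes. None of the 95 had a main-list summit between its ends either.

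The members were also counted by role, each list beside the 40.7% of all genes bound in the main list. The 4 ionotropic co-receptors were unbound (0%, 0 to 60.2), an interval that includes the background, with a median distance of 3340 bp to a summit. Ir25a was 2557 bp away with a ranked signal of 21.3, Ir8a 4124 bp with 7.5, and Ir76b 1708 bp with no ranked entry. Among 25 odorant receptors of the larva none was bound (0%, 0 to 13.7). Or13a was 12479 bp from a summit, Or1a 21659 bp and Or22c 9073 bp. Of 12 antennal ionotropic receptors Ir31a was bound (8.33%, 0.211 to 38.5). Ir21a, involved in cool sensing, was 48062 bp from a main-list summit, Ir40a, involved in dry air sensing, 27880 bp and Ir41a 322367 bp.

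Among taste receptors, 2 of 9 sugar receptors were bound, Gr5a and Gr61a. The other 7 each had a ranked entry that did not pass, where 30% of all genes had an entry without a call. These 7 are not separate observations, since Gr43a is the only one outside the tandem run Gr64a to Gr64f, where genes share records and entries. The fructose receptor Gr43a had a ranked signal of 10.8, Gr64a 20.3 and Gr64b 16.4. None of the 5 broadly expressed bitter receptors was bound (0%, 0 to 52.2). Gr32a had a ranked signal of 17.8, and Gr33a and Gr39a had no ranked entry and lay 28816 and 13076 bp from a main-list summit. The interval for the sugar receptors ran from 2.81% to 60.0%, and both this and the bitter receptor interval include the 40.7% of all genes.

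Genes that work with the receptors but lie outside the families were counted in the same way. Of 18 partner proteins and transcription factors of sensory neurons 2 were bound (11.1%, 1.38 to 34.7; background 40.7%). Xbp1, a transcription factor of the unfolded protein response, had a signal of 389 in the main list, 134 in replicate 1 and 271 in replicate 2, 140 bp from its start. The channel gene ppk29 had 190, 89.3 and 162, with the summit 8 bp from its start, far nearer than the 669 bp to the next gene. Both were thus bound in each replicate. Orco lay 16433 bp from a main-list summit, Fer1 5090 bp and Eip93F 46879 bp. Of 49 odorant-binding protein genes 3 were bound (6.12%, 1.28 to 16.9; background 40.7%). Obp47b had a signal of 1370, 481 bp from its start and 27 bp from CG7741. Obp93a had 1287, 473 bp from its start and 26 bp from Ice2. Obp99b had 112, at 269 bp. As at the receptors, the 2 strong entries were nearer to a neighbouring gene. Obp18a, Obp19a and Obp19b were unbound, at 17655, 11302 and 10313 bp.

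Promoter sequence was compared over windows from 250 bases before to 50 after the annotated start, on both strands. An E2F motif was present in 1 member promoter (0.565%), that of Ir51b, against 3.43% of all promoters and 5.02% of those of bound genes. The DRE was present in 1, that of Gr68a (0.565%), against 9.36% and 18.1%. The Motif 1 core was present in none (0%, 0 to 2.06), against 6.04% and 12.7%. For genes without an annotated 5′ UTR, the nearer background, the same shares were 1.99%, 1.2% and 0%. The 129 members without one had 0.775% (0.0196 to 4.24) for E2F, the same for the DRE, and 0% for the Motif 1 core. That interval includes the background shares of the E2F motif and the DRE. Neither Ir51b nor Gr68a was bound.

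The CHR-like hexamers TTTGAA and TTCGAA were present in 37.3% of member promoters (30.1 to 44.9) and 48.1% of all. Among genes without an annotated 5′ UTR they were present in 41.9% of members (33.2 to 50.9) and 42.2% of all. The shares for the initiator hexamers TCAGTT and TCAGTC were 32.2% of members (25.4 to 39.6) and 35.1% of all genes. The TATA box hexamer TATAAA was present in 54.8% of member windows (47.2 to 62.3), against 45.8% of all genes. Without an annotated 5′ UTR, the shares were 53.5% of members (44.5 to 62.3) and 46.8% of all such genes, which that interval includes. By family it was present in 78.0% of odorant (65.3 to 87.7), 55.0% of ionotropic (41.6 to 67.9) and 31.0% of gustatory receptor windows (19.5 to 44.5). It began 40 to 20 bases before the annotated start, on the strand of the gene, in 2.82% of members and 7.78% of all genes. Without an annotated 5′ UTR, this held for 1.55% of members and 3.59% of all such genes. ATCGAT was present in 11.9% of member promoters, 23.3% of all and 36.9% of those of bound genes. Among genes without an annotated 5′ UTR it was present in 11.6% of members and 12.5% of all. Median GC content was 39.3% for members and 38.0% for all genes.

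**Figure D5:**
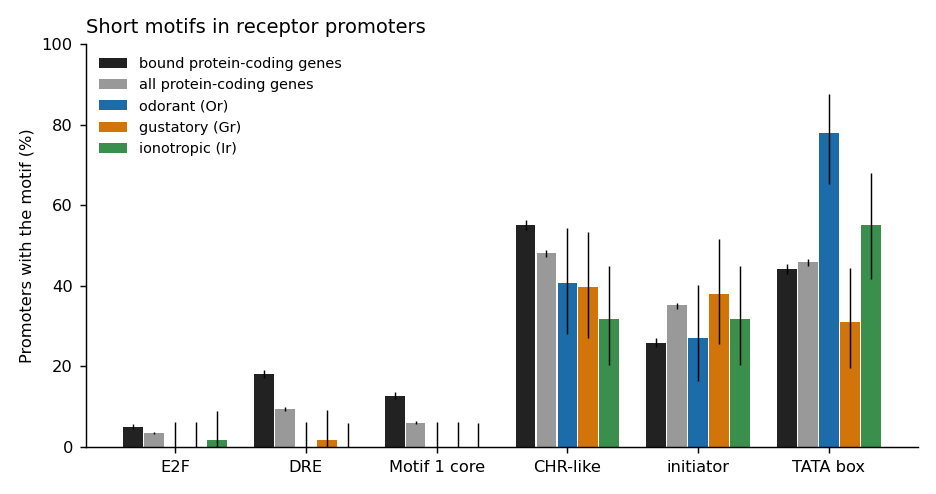
Share of promoter windows (y axis, percent) with each motif, as bars from 0 for bound genes, all protein-coding genes and the 3 families, with exact 95% intervals. The E2F, DRE and Motif 1 core bars of the families are at or near 0, while the TATA box bar of odorant receptors reaches 78.0%.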

How the data were processed

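E2f2-eGFP ChIP-seq peak lists of 2 biological replicates from whole embryos were analysed; per the labels, chromatin was sonicated to 200 to 800 bp and coordinates are dm6, given counted from 1. No aligner, caller name or read depth was found in the labels or records, and precision is therefore stated over genes only. The signal value is the authors' peak caller output, on a scale that the deposited records do not define. The deposited score is a whole number of the authors' IDR step, at least 830 in the main list. Deposited ranked lists also give a −log10 IDR for each entry. The 32 unnamed per-replicate columns of the ranked lists were not used. Of 7493 entries of the ranked list with a −log10 IDR of at least 2, 7312 are in the main list.

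Starts and gene models were those of Ensembl release 115. Counts, distances and exact Clopper-Pearson 95% intervals were computed with Python 3.11.15, pandas 2.3.3 and SciPy 1.17.1; the counting was tested on simulated summits. No test was run, since the 2 replicates are 1 group and genes are not replicates. Alternatives were the larger list, each replicate alone, other windows, midpoints, gene 5′ ends, the 1000 strongest entries, nearest starts and genes without a divergent neighbour; overlapping entries and 5′ UTR splits were added after seeing the data. Members, lists and motifs were chosen with earlier results of these data known. Genes were named by rule: members bound in any list, the 5 strongest unbound, nearest neighbours, those at the window edge, and, of each role list, its bound genes and up to 3 unbound in symbol order. Other named genes, the tandem runs, the divergent pairs and the promoters with an E2F motif or DRE, were picked after their values were seen.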

Additional observations from a re-analysis of the deposited data

How the results depend on the processing

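In all alternatives tried the share of members bound stayed below that of all genes under the same rule. Among genes without an annotated 5′ UTR the difference was not resolved. There 2 of 129 members were bound (1.55%, 0.188 to 5.49), an interval that includes the background of 4.18%. The 6 bound members became 8 with the larger list, 9 at 1000 bp, 5 with midpoints, 6 with gene 5′ ends, 5 with the strongest of overlapping entries and 4 among genes with an annotated 5′ UTR. They became 1 at 250 bp, 1 among the 1000 strongest entries (background 7.82%), 2 with nearest starts and 1 without divergent neighbours. Each replicate alone gave 3.

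The single odorant receptor became 0 in either replicate, at 250 bp, among the 1000 strongest, with the strongest of overlapping entries and among genes with a 5′ UTR, and 3 at 1000 bp. The 2 gustatory receptors became 1 in either replicate, at 250 bp, with midpoints and with nearest starts, and 0 among the 1000 strongest and without divergent neighbours. The 3 ionotropic receptors became 0 at 250 bp, with nearest starts and without divergent neighbours, 1 among the 1000 strongest, and 2 in either replicate. The 2 members with the nearest start became 0 to 1 in single replicates, 1 at 250 bp and 0 among the 1000 strongest. The 46 members with a non-passing ranked entry became 26 to 34 in single replicates and 27 at 250 bp. Except for the window, strength and arrangement rules, which change the genes or entries counted by construction, the cause was not tested.

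No paired analysis was possible because the samples form 1 group and no result comes from a test. Counts of 1 to 3 genes limit what any alternative can show, and the unknown depth, the missing control and the whole-embryo mixture limit what an absent peak can show.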
